A study of Solanum lycopersicum with 12 samples.

Results

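The 100 genes described here were the most abundant transcripts of aluminium-treated roots of the tomato mutant slstop1. They were the 100 of 35768 gene models with the highest mean FPKM over the 3 libraries of slstop1 roots with aluminium (Al). FPKM counts sequenced fragments per length of transcript and per size of the library, so the share of the summed FPKM that a gene holds in a library approximates its share of the transcript molecules and does not measure their absolute number. The 100 genes held 32.6 ± 1.09% of the summed FPKM in slstop1 with Al, 25.5 ± 1.30% in the wild type (WT) with Al, 10.6 ± 1.01% in slstop1 without Al and 9.87 ± 1.74% in WT without Al (SD, n = 3 each). Because the values of slstop1 with Al chose the genes, each comparison that involves those libraries is given as a description, and where counts of genes called are printed for one, nothing is read from them.

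Whole roots of tomato (Solanum lycopersicum), taken 20 days after germination, were profiled by mRNA sequencing in 12 libraries. The 4 groups were WT at 0 µM Al, WT at 60 µM Al, slstop1 at 0 µM Al and slstop1 at 60 µM Al. All groups were kept at pH 4.7, so the plants without Al were in acid solution too. Each group had 3 biological replicates per the labels. The nature of the slstop1 allele, the number of independent mutant lines, the length of the Al exposure and the number of plants per sample are details that no source used here gives. For that reason effects of the gene and effects of a single line cannot be told apart.

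In acid soil Al dissolves as an ion that stops root elongation, first at the root tip. Plants resist it in part by releasing organic acids that bind the ion outside the root and by sequestering it inside. STOP1, a zinc finger transcription factor studied mostly in Arabidopsis, switches on genes for both and is known for low-pH tolerance as well. Abundant transcripts of a root are commonly those of translation, cell walls, water and solute transport, and defence, and a stressed root can turn a large part of its transcript pool over to a small number of genes.

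The gene models carry Solyc identifiers without names or descriptions, and none of the identifiers matched the reference gene table at hand. The genes are therefore given by identifier alone, with no role, and the label of root tissue was not checked against marker genes. Each chromosome number was read from the identifier itself. The identifier of SlSTOP1 comes from published nomenclature. Its gene, Solyc11g017140.2 on chromosome 11, was listed at 29.1, 30.0 and 27.6 FPKM in slstop1 with Al, against 85.8, 80.8 and 88.6 FPKM in WT with Al. Without Al it was listed at 39.8, 34.7 and 33.5 FPKM in slstop1, against 72.7, 79.2 and 56.0 FPKM in WT, so every mutant library lay below every WT library. The deposited FPKM summed to between 696287 and 719916 per library, and absolute depth is unknown. Replicate 3 of WT without Al stood apart, with 13966 gene models at 1 FPKM or more against 14695 and 14753 in the other two of its group, and the main shares and genotype differences that rest on that group are also given without it.

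The share of the transcript pool held by the 100 genes was ordered by Al first and by genotype second. In whole roots, a change in the number of cells of a type and a change in RNA per cell cannot be told apart. In the slstop1 libraries with Al the share was 31.7%, 33.8% and 32.3% for replicates 1 to 3. In WT with Al it was 25.5%, 24.2% and 26.8%. Without Al it was 10.1%, 11.8% and 9.995% in slstop1 and 10.8%, 10.9% and 7.86% in WT. Every library with Al lay above every library without Al, and with Al every slstop1 library lay above every WT library. Without Al the genotypes overlapped.

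In ratios of group means, the share with Al was 3.07 times that without Al in slstop1 and 2.58 times in WT. The ratio in WT was 2.34 without replicate 3 of the WT controls. The share in slstop1 over that in WT was 1.28 with Al and 1.08 without Al. Left without replicate 3, the WT controls averaged 10.9%, and the ratio without Al became 0.975. The sign of the small genotype difference without Al thus hung on that library. When the 100 genes were chosen again from 2 of the slstop1 libraries with Al, 98, 96 and 99 of them were the same, and the chosen genes held 31.7%, 33.7% and 32.3% of the third library, which had taken no part in the choice.

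**Figure D1:**
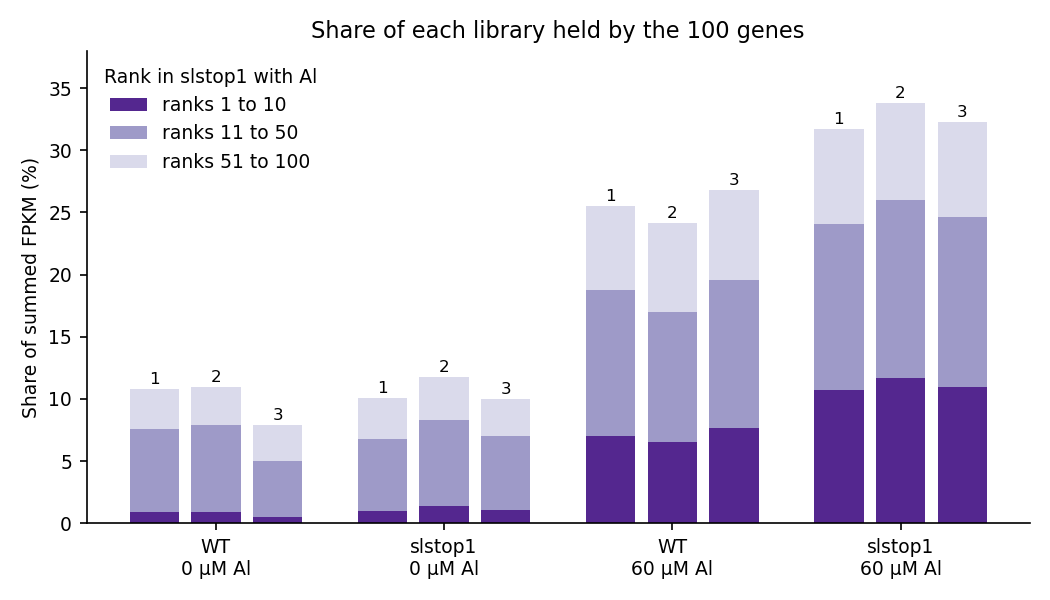
Each bar is 1 library, numbered by replicate, and its height is the percentage of the summed FPKM held by the 100 genes; the shades give the genes at ranks 1 to 10, 11 to 50 and 51 to 100 of slstop1 with Al. The 3 libraries of slstop1 with Al reach 31.7% to 33.8%, those of WT with Al 24.2% to 26.8%, and the 6 libraries without Al 7.86% to 11.8%.

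The difference in share was concentrated at the head of the list. The genes at ranks 1 to 10 held 11.1 ± 0.502% in slstop1 with Al, 7.08 ± 0.583% in WT with Al, 1.14 ± 0.237% in slstop1 without Al and 0.750 ± 0.207% in WT without Al. Their share thus differed 9.80-fold between doses in slstop1 and 9.44-fold in WT. The genes at ranks 11 to 50 held 13.8%, 11.3%, 6.23% and 6.08% in the same order of groups, and those at ranks 51 to 100 held 7.72%, 7.06%, 3.25% and 3.04%. The genes just past the list were less unequal between genotypes: the next 100 held 9.59% in slstop1 with Al and 9.34% in WT with Al. Those from there to rank 500 held 14.4% and 14.8%, so that there the order of the genotypes was the other way round. The ranks come from the slstop1 libraries with Al, so a larger gap at the head is partly built in. The 100 most abundant genes of WT with Al held 31.9% in slstop1 with Al and 27.2% in WT with Al, a smaller gap than that of the mutant list.

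The list had no natural edge at its end. Solyc07g008130.3, at rank 100, averaged 891.2 FPKM in slstop1 with Al (903.8, 944.8 and 825.2), and Solyc04g080850.3, the first gene outside it, averaged 887.5 FPKM. Rank 1 stood at 11906 FPKM and the median of the list at 1453 FPKM. In the other groups the median of the 100 means was 1306 FPKM in WT with Al, 288.5 FPKM in slstop1 without Al and 217.7 FPKM in WT without Al. Replicates of slstop1 with Al were close, with a median coefficient of variation of 5.40% over the 100 genes against 17.8% in WT with Al, 20.2% in slstop1 without Al and 25% in WT without Al. The first of these comes from the libraries that chose the genes.

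Most of these genes ranked lower without Al. Of the 100, 21 were also among the 100 most abundant genes of WT without Al, 45 lay between there and rank 1000 and 34 lay beyond rank 1000. The 21 genes held nearly the same share everywhere, 7.60 ± 0.162% in slstop1 with Al, 6.97 ± 0.343% in WT with Al, 7.57 ± 0.553% in slstop1 without Al and 7.33 ± 1.28% in WT without Al. The 45 genes held 13.2%, 10.9%, 2.65% and 2.29% in that order. The 34 genes held 11.8 ± 0.584%, 7.62 ± 0.585%, 0.397 ± 0.129% and 0.250 ± 0.0611%. The larger share with Al was therefore carried by the 79 genes from outside the WT control list, which held 25% in slstop1 with Al and 18.5% in WT with Al. Since ranks in WT without Al define these classes, their levels in that group are part of the definition.

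**Figure D2:**
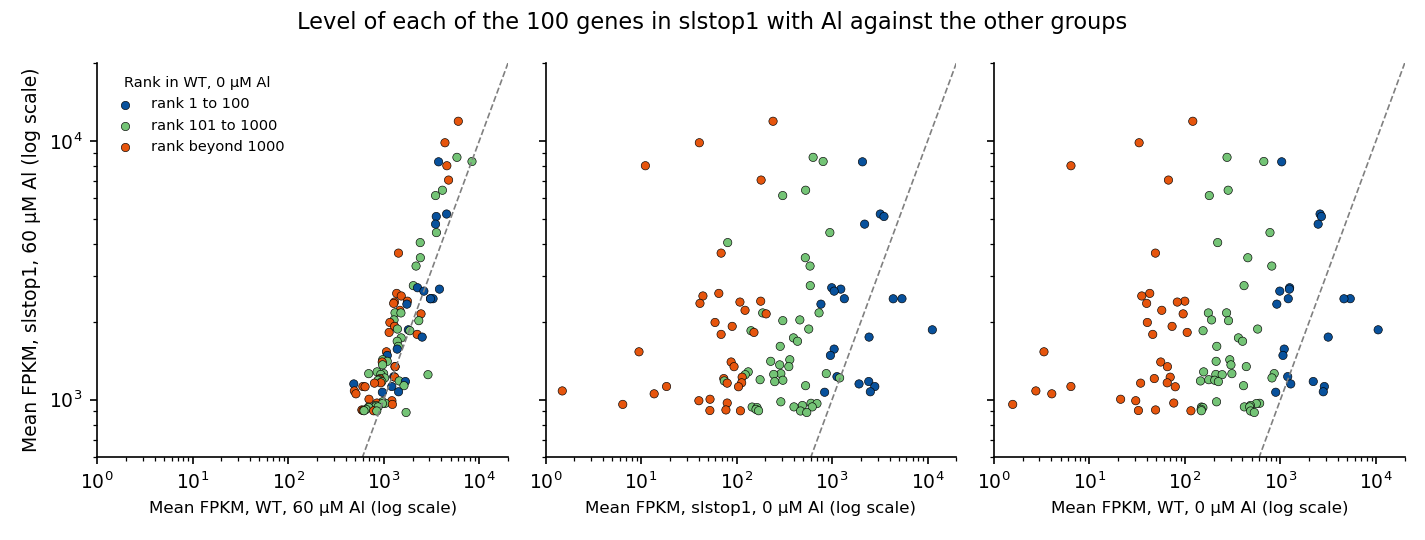
Each point is 1 of the 100 genes, with its mean FPKM in slstop1 with Al on the vertical axis and its mean FPKM in WT with Al, slstop1 without Al or WT without Al on the horizontal axis, both on log scales; colour gives its rank in WT without Al and the dashed line marks equal levels. The points lie near the line against WT with Al, whereas without Al 34 genes ranked beyond 1000 in WT lie far to the left of it.

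The lists of abundant genes sorted by dose rather than by genotype. When each group was ranked by its own means, the top 100 of slstop1 with Al shared 84 genes with that of WT with Al, 22 with that of slstop1 without Al and 21 with that of WT without Al. The lists of the genotypes without Al shared 89 genes. WT with Al and WT without Al shared 24, so the turnover of the list with Al was of like size in WT. The 16 genes of the mutant list that were not in the list of WT with Al were abundant there too. The lowest of them ranked 213 in WT with Al, and their share was 2.27% in slstop1 and 1.47% in WT. Genes in the top 100 of all 4 groups numbered 18.

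The abundant transcripts of untreated roots held a smaller share with Al. The 100 most abundant genes of WT without Al held 21.9 ± 0.334% there and 21.2% in slstop1 without Al. Their share was 12 ± 0.658% in WT with Al and 10.7 ± 0.0922% in slstop1 with Al.

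Ranking each library by its own values treats all groups alike and gave a smaller contrast. The 100 most abundant genes of each library itself held 32.7 ± 1.0% in slstop1 with Al, 27.7 ± 1.10% in WT with Al, 21.9 ± 0.381% in slstop1 without Al and 22.7 ± 0.313% in WT without Al (SD, n = 3). The difference was 10.8 points for Al in slstop1, 4.98 points for Al in WT and 5.04 points for slstop1 over WT with Al. Without Al slstop1 lay 0.73 points lower. With lists of 100, groups did not overlap in any of the 4 comparisons, and each gave p = 0.1 in a two-sided exact permutation test, the smallest that 3 against 3 can give. The design cannot reach 0.05 for such a measure. The size of the list mattered in the comparisons with WT without Al. For Al in WT the groups overlapped with lists of 500 and 1000 genes (exact permutation p = 0.4 for each). For the genotypes without Al they overlapped with lists of 10, 50, 500 and 1000 genes (exact permutation p from 0.4 to 1.0), and the difference with lists of 500 was −0.60 points but 1.32 points without replicate 3 of the WT controls. With lists of 100 and without that library, the difference was 5.13 points for Al in WT and −0.59 points between genotypes without Al.

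Between the doses in slstop1, 91 of the 100 genes gained share and 9 lost it. The gains summed to 24.9 points of the summed FPKM and the losses to −2.87 points, and 16 genes made up 50% of the gains. In WT 92 gained and 8 lost, for a net 15.6 points, with 50% of the gains in 19 genes. The gains were thus widely spread with a heavy head, in which ranks 1 to 10 gave 9.99 of the net 22.0 points in slstop1. Those ranks were set by the slstop1 libraries with Al themselves. Choosing genes by their level in those libraries also favours gains with Al in slstop1. Of all genes tested, 36.9% had a log2 change with Al above 0 in slstop1 and 40.5% in WT.

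Fewer genes made the difference between the genotypes with Al. Of the net 7.12 points, ranks 1 to 10 gave 4.05 points (56.9%), ranks 11 to 50 gave 2.41 and ranks 51 to 100 gave 0.661. That order is partly built in, since the slstop1 libraries with Al set the ranks. There were 74 genes with a larger share in slstop1, summing to 8.68 points, and 26 with a smaller share, summing to −1.56 points. The 10 genes with the largest gains held 50% of the gains, and the first 2 of them, Solyc03g020010.1 and Solyc06g061215.1, gave 1.55 points. Without Al the net difference was 0.74 points, with 71 genes higher and 29 lower in slstop1, and 7 genes held 50% of those gains. Over all genes tested, the log2 difference between genotypes was above 0 for 32.8% with Al and 52.5% without Al. Choosing genes by their level in slstop1 with Al favours a larger share there.

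**Figure D3:**
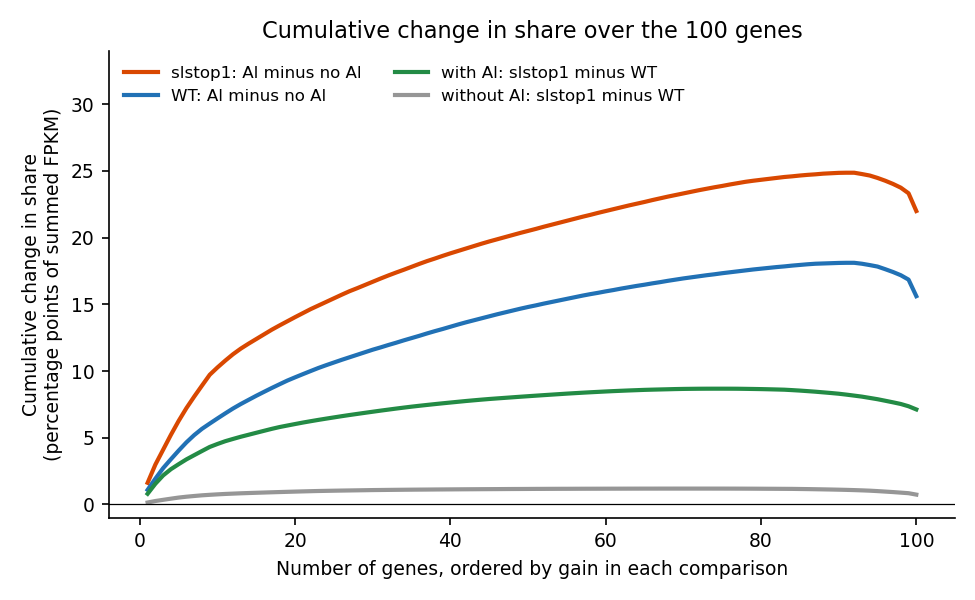
For each comparison the 100 genes are ordered by their own gain in share, and the curve sums the change in percentage points of the summed FPKM. The curves end at the net changes, 22.0 points for Al in slstop1, 15.6 points for Al in WT, 7.12 points for slstop1 minus WT with Al and 0.74 points without Al, and bend down at the end where genes that lost share are added.

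Solyc03g020010.1 on chromosome 3 was the most abundant transcript of slstop1 with Al. Its level was 11653, 12258 and 11808 FPKM there and 5189, 6044 and 6868 FPKM in WT with Al. Without Al it was 245.4, 276.3 and 200.6 FPKM in slstop1 and 120.7, 121.2 and 120.4 FPKM in WT. The 4 groups did not overlap, and the mutant was about as far above WT at either dose, 1.97 times with Al and 1.99 times without. Its share of the transcript pool was 1.66% in slstop1 with Al and 0.856% in WT with Al, a gap of 0.803 points, the largest of the list.

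Solyc06g061215.1 on chromosome 6 was second in both the list and the gap. It stood at 9020, 10834 and 9649 FPKM in slstop1 with Al, against 4487, 3814 and 4820 FPKM in WT with Al. Without Al it stood at 67.9, 41.9 and 12.5 FPKM in slstop1, against 56.5, 26.3 and 16.5 FPKM in WT. Here the genotypes were apart with Al, 2.25-fold in means, and overlapped without it. In the limma test given below, its genotype difference with Al did not pass an adjusted p under 0.05, and passed in 1 of 20 alternative settings. Its interaction, the change with Al in slstop1 less that in WT, did not pass either, in the main fit or in 19 alternatives. A different response of the genotypes to Al is thus not shown for this gene. The share was 1.37% in slstop1 with Al and 0.621% in WT with Al.

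The most abundant transcript of WT with Al was a different one and showed no such gap. Solyc05g016060.3 on chromosome 5 stood at 9028, 8552 and 7595 FPKM in WT with Al, against 7946, 8863 and 8158 FPKM in slstop1 with Al, where it ranked 4. Without Al it stood at 691.5, 663.0 and 653.6 FPKM in WT, against 728.2, 1013 and 674.6 FPKM in slstop1. The genotypes overlapped at both doses, with a ratio of means of 0.992 with Al.

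On the losing side, the gene at rank 1 without Al in both genotypes gave up most. Solyc03g096430.1 on chromosome 3 stood at 12633, 13755 and 5213 FPKM in WT without Al, against 9549, 12766 and 11286 FPKM in slstop1 without Al. With Al the values were 1681, 1927 and 1817 FPKM in WT, against 1938, 2252 and 1390.5 FPKM in slstop1. Its share changed by −1.33 points in slstop1 and −1.25 points in WT and still left it at rank 40 of slstop1 with Al. Solyc01g099770.3, at rank 2 without Al in both genotypes, was second in loss, with −0.423 points in slstop1 and −0.326 points in WT.

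The 26 genes with a smaller share in slstop1 with Al than in WT were led by the following pair. Solyc02g086880.3 on chromosome 2 stood at 1232, 1266 and 1245 FPKM in slstop1 with Al, against 3077, 2021 and 3615 FPKM in WT with Al. Its groups did not overlap, and its share differed by −0.238 points. Solyc01g090120.3 was second, at −0.171 points, with 2225, 2917 and 2874 FPKM in slstop1 against 4495, 2412 and 4578 FPKM in WT. The libraries of the second gene overlapped, since replicate 2 of WT was low.

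**Figure D4:**
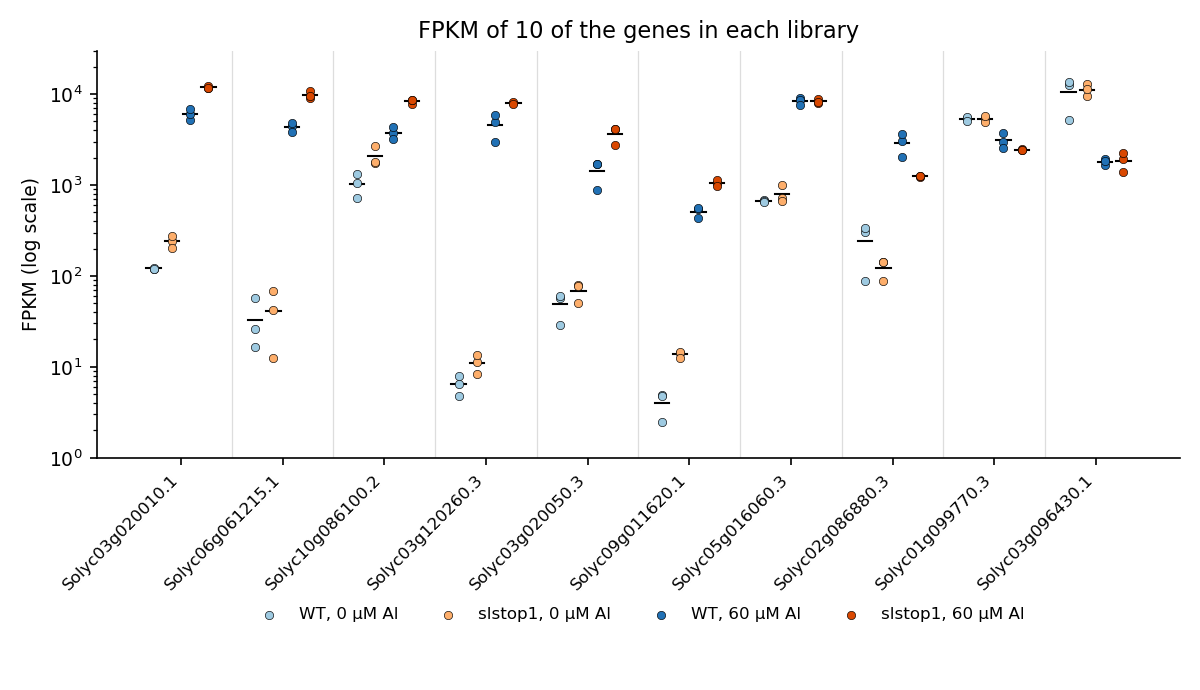
FPKM of 10 of the genes on a log scale; each point is 1 library, colour gives the group and the short black line is the mean of the 3 libraries. Solyc03g020010.1 is higher in slstop1 than in WT at both doses, Solyc05g016060.3 overlaps between genotypes, and Solyc03g096430.1 and Solyc01g099770.3 are lower with Al.

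Al in WT is a comparison of libraries that played no part in choosing the genes. It was tested with limma on log2(FPKM + 1), a scale that understates changes of low genes, across the 15903 gene models with at least 1 FPKM in at least 3 libraries. All 100 genes passed that filter, also when it was applied to the 9 libraries outside slstop1 with Al. Of the 100, 83 rose with Al in WT at a Benjamini-Hochberg adjusted p under 0.05, where 21.9% of all genes tested did. A further 6 fell, where 39.0% of all genes tested did. The median change was 2.33 (log2), a 5.03-fold rise, against −0.28 over all genes tested, which was −0.07 with median-of-ratios scaling. Without replicate 3 of the WT controls the median of the 100 genes was 2.15. Libraries did not overlap for 82 genes that were higher with Al, where 22.7% of all genes tested were, and for 7 that were lower, where 40.0% were. The next 100 genes by rank changed likewise with Al in WT, 77 rising and 12 falling with a median of 1.79. A rise with Al in WT was thus seen beyond the list as well. The genes were picked as abundant at the same dose in the mutant, and 84 of them were also in the top 100 of WT with Al. The choice therefore favours a rise with Al in WT, and all genes tested were not matched to the 100 for abundance.

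Of the members, 6 averaged under 10 FPKM in WT without Al. Among them were the genes with the 2 largest rises. Solyc03g120260.3 on chromosome 3 stood at 7.94, 6.53 and 4.75 FPKM in WT without Al, against 4904, 2995 and 5833 FPKM in WT with Al, which was a rise of 9.24 ± 0.253 (log2, SE; limma adjusted p = 4.9e-09). It stood at 8045, 8178 and 7822 FPKM in slstop1 with Al, above every WT library. Without Al its level there was 11.4, 13.6 and 8.38 FPKM. Solyc03g044850.1 on the same chromosome was listed at 0, 0 and 4.72 FPKM in WT without Al, against 1555, 761.1 and 1379 FPKM in WT with Al, a rise of 9.36 ± 0.551 (limma adjusted p = 3.17e-07). With controls listed at 0 the size of that rise depends on the pseudocount, and it ran from 7.57 to 11.66 (log2) over the alternative settings. In slstop1 with Al it stood at 954.1, 918.4 and 1001 FPKM, within the range of WT.

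The genes that led the pool with Al rose in WT as well. For Solyc03g020010.1 the rise was 5.62 ± 0.153 (log2, SE; limma adjusted p = 4.9e-09). For Solyc06g061215.1 it was 7.17 ± 0.535 (limma adjusted p = 1.29e-06), and for Solyc05g016060.3 it was 3.64 ± 0.171 (limma adjusted p = 9.75e-08). Among the 6 that fell, Solyc03g096430.1 changed by −2.42 ± 0.336 (limma adjusted p = 9.49e-05). Solyc01g102380.4 on chromosome 1 changed by −1.35 ± 0.288 (limma adjusted p = 0.00183), from 1743, 1318 and 783.0 FPKM in WT without Al to 389.1, 448.5 and 619.6 FPKM with Al. In slstop1 with Al the last gene stood at 984.5, 1207 and 1256 FPKM, above each WT library with Al, and in slstop1 without Al at 1555, 2355 and 1830 FPKM. It was in the mutant list and ranked 213 in WT with Al. Its place in the list thus went with a lower level than without Al in both genotypes. The fall in slstop1 lost its call in 11 of 20 alternative settings, over which it ran from −0.86 to −0.25 (log2).

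By their rank in WT without Al the genes behaved differently. Of the 21 that were already in the WT control list, 7 rose with Al in WT, 6 fell and 8 did not pass. Of the 45 that came next, down to rank 1000, 42 rose, and of the 34 beyond rank 1000, 34 rose, with median changes of 2.14 and 4.84 (log2). These ranks use the same WT control libraries as the test, so the order of the medians is partly built in.

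Fitted in the same way, Al in slstop1 gave 84 genes higher and 7 lower. Of all genes tested, 21.3% were called higher and 45.5% lower in that comparison, and nothing is read from the counts because the genes were chosen on these libraries. Their median change was 2.52 (log2). The 2 Al responses share no library, but the members were picked as high in one of them.

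The genotypes without Al were the second comparison whose libraries played no part in the choice. Of the 100 genes, 2 were higher in slstop1 without Al in the limma test, where 0.0692% of all genes tested were, and 0 were lower, where 0.107% were. At an unadjusted p under 0.05 there were 22 of the 100 in either direction, against 862 of all 15903 genes tested. The first of the 2 was Solyc09g011620.1 on chromosome 9, at 14.1, 14.6 and 12.4 FPKM in slstop1 without Al, against 4.90, 4.76 and 2.45 FPKM in WT without Al. Its difference was 1.58 ± 0.197 (log2, SE; limma adjusted p = 0.010), and the adjusted p ranged from 0.0036 to 0.209 over the alternative settings. The call was lost with only the 6 libraries compared and when replicate 1 or 2 of slstop1 without Al was left out. With Al the values were 1044, 1125 and 987.3 FPKM in slstop1, against 543.6, 432.9 and 557.4 FPKM in WT.

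The other was Solyc03g020010.1, the most abundant transcript with Al. Its difference without Al was 0.98 ± 0.153 (limma adjusted p = 0.0373). That call was lost in 12 of 20 alternative settings, over which the adjusted p ran from 0.0307 to 0.209; among them were those without replicate 1, 2 or 3 of slstop1 at either dose and those without replicate 1 or 2 of WT without Al. Its values above do not overlap between genotypes at either dose.

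The remaining members were mostly a little higher in the mutant without Al, and the size of this depended on single libraries. The median difference of the 100 genes was 0.22 (log2), with 73 above 0, against 0.01 and 52.5% above 0 over all genes tested. Groups did not overlap for 21 genes that were higher, where 4.77% of all genes tested were, and for 1 that was lower, where 3.4% were. Without replicate 3 of WT without Al the median of the 100 genes was 0.11, with 62 above 0, and that of all genes tested −0.05. Without replicate 2 of slstop1 without Al the 2 medians were 0.07, with 61 above 0, and 0.03. Leaving out any other library of these groups gave a median of 0.26 to 0.36 over the 100 genes. For the genes at ranks 1 to 10 the median difference was 0.84, with 10 of 10 above 0. It was 0.67, with 8 of 10 above 0, without replicate 3 of WT without Al, and 0.65, with 10 of 10 above 0, without replicate 2 of slstop1 without Al.

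Solyc10g086100.2 on chromosome 10 had the largest gain in share of the list between genotypes without Al. It stood at 1763, 2689 and 1784 FPKM in slstop1 without Al, against 1313, 1050 and 726.9 FPKM in WT without Al. The libraries did not overlap, but the difference of 1.03 (log2) did not pass (limma adjusted p = 0.281). With Al the values were 7775, 8555 and 8568 FPKM in slstop1, against 3709, 3186 and 4354 FPKM in WT, a ratio of means of 2.21, close to the 2.02 without Al. The second largest gain was that of Solyc06g005470.3, at 3063, 3973 and 3441 FPKM in slstop1 against 2549, 4058 and 1448 FPKM in WT, which overlapped. Solyc04g071085.1 had the largest loss, of −0.106 points, from 4513, 4072 and 893.6 FPKM in WT to 1608, 3073 and 2631 FPKM in slstop1. Solyc08g080660.1 was second, at −0.0429 points. The libraries of both overlapped.

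With Al, 6 of the 100 genes were called higher in slstop1 than in WT and 0 lower, where 1.12% and 8.12% of all genes tested were. The choice used these slstop1 libraries, so the counts and values are a description. At an unadjusted p under 0.05 there were 36 in either direction, against 3829 of all 15903 genes tested. Libraries did not overlap for 55 genes that were higher in slstop1, where 7.85% of all genes tested were, and for 7 that were lower, where 26.8% were. The median difference was 0.44 (log2) over the 100 genes, 0.76 over ranks 1 to 10 and −0.16 over all genes tested. Scaled by median of ratios, the median of all genes was −0.01, that of the 100 genes 0.65 and the count of genes called higher 24. The count was 2 without replicate 2 or without replicate 3 of slstop1 with Al, and 3 when replicate 1 of WT with Al was dropped. It was 11 without replicate 2 of slstop1 without Al and 19 without replicate 3 of the WT controls. The number of calls thus depended on the scaling and on single libraries.

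Among the 6 genes called higher with Al, the largest difference was that of Solyc03g020050.3 on chromosome 3, at 2786, 4142 and 4118 FPKM in slstop1 and 878.6, 1703 and 1698 FPKM in WT. It was 1.41 (log2). The second was that of Solyc01g102380.4, at 1.26, the gene given above as lower with Al. The call of each was lost in 4 of 20 alternative settings. Solyc08g077330.3 on chromosome 8 was not one of the 6. Its genotype difference with Al passed in 4 of 20 alternative settings only, and its interaction in 1 of 19 only. It had one of the 2 largest rises with Al in slstop1, from 1.81, 2.19 and 0.49 FPKM to 1166, 1119 and 954.6 FPKM. In WT it rose from 3.80, 3.69 and 0.76 FPKM to 519.1, 381.2 and 577.1 FPKM, by 7.16 ± 0.385 (log2, SE; limma adjusted p = 1.89e-07).

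The genotype ratios of the members at the 2 doses are set side by side. The median ratio of means of slstop1 over WT was 1.34 with Al and 1.18 without Al over the 100 genes. Over ranks 1 to 10 it was 1.66 with Al, from 0.992 to 2.25, and 1.80 without Al, from 1.20 to 2.69. Of the 100 genes, 57 had a ratio above 1 at both doses, 19 with Al alone, 14 without Al alone and 10 at neither. The interaction, the change with Al in the mutant less the change with Al in WT, was called for 0 genes higher and 0 lower. Of all genes tested, 0.0503% were called higher and 0.975% lower. An unadjusted p under 0.05 was reached by 10 of the 100 and by 2099 of all 15903 genes tested. The median of the interaction was 0.04 (log2) over the 100 genes and −0.08 over ranks 1 to 10, against −0.18 over all genes tested. With median-of-ratios scaling the 2 medians of the members were 0.26 and 0.14, so the sign for ranks 1 to 10 depended on the scaling. It also turned with a library left out, to 0.07 without replicate 2 of slstop1 without Al and to 0.11 without replicate 3 of the WT controls. The median of the 100 genes turned to −0.07 without replicate 3 of slstop1 without Al and to −0.02 without replicate 1 of the WT controls. These values too are a description, and a p that misses the threshold does not show that the responses were alike.

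A ratio of shares weighs differently at the 2 doses, as ranks 1 to 10 show. Their ratio of 1.57 with Al corresponded to 4.05 points of the transcript pool. The ratio of 1.52 without Al corresponded to 0.386 points, and was 1.31 without replicate 3 of the WT controls. The ratio was 1.213 with Al and 1.025 without Al at ranks 11 to 50, and 1.094 and 1.067 at ranks 51 to 100. For the 100 genes it was 1.28 and 1.08. Whether a ratio of shares was the same at both doses was not tested.

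**Figure D5:**
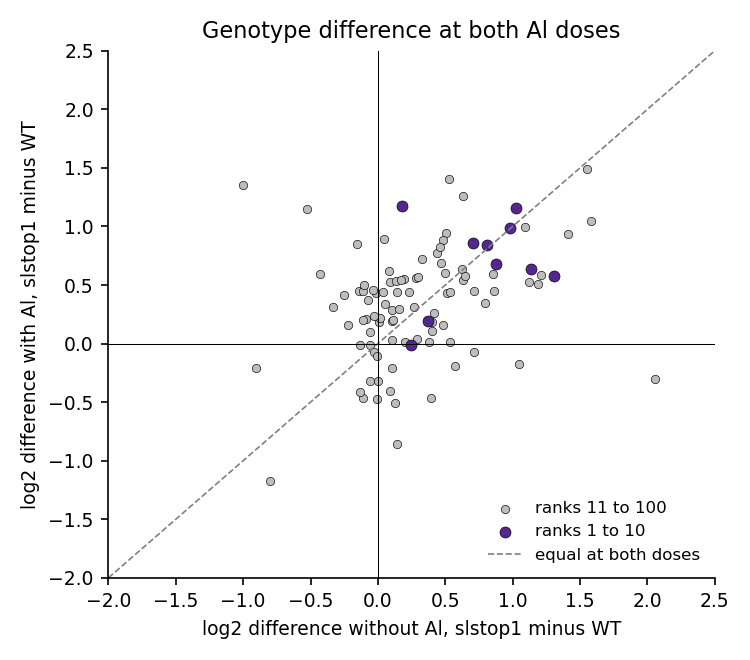
Each point is 1 of the 100 genes, with its log2 difference between slstop1 and WT without Al on the horizontal axis and with Al on the vertical axis; dark points are ranks 1 to 10 of slstop1 with Al and the dashed line marks equal differences. The medians of the dark points are 0.84 without Al and 0.76 with Al, and both axes share no library.

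Some members were close neighbours along the chromosomes. Of the 100 genes, 22 had another member within 5 gene models in identifier order, in 9 runs, against 8 of the next 100 genes by rank and 19, 11 and 7 of the own lists of WT with Al, slstop1 without Al and WT without Al. The run from Solyc03g020010.1 to Solyc03g020050.3, with 3 members, held 2.33 ± 0.111% of the transcript pool in slstop1 with Al and 1.14 ± 0.198% in WT with Al. The same 3 genes held 0.0465% in slstop1 without Al and 0.0251% in WT without Al. A run of 3 on chromosome 8, which includes Solyc08g080660.1, held 1.61%, 1.25%, 0.553% and 0.594% in the same order of groups. Chromosome 1 carried 21 of the 100 genes, where it carries 12.8% of all genes tested, and chromosome 3 carried 14, where it carries 10.4%. Neighbouring genes can be copies of each other whose reads the authors' counting may have split, so single levels within runs are uncertain.

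One neighbouring pair on chromosome 1 is given as an example, chosen after its values were seen. Solyc01g106620.2 stood at 5619, 2964 and 3548 FPKM in slstop1 with Al, against 297.8, 3117 and 3814 FPKM in WT with Al. Solyc01g106630.2 next to it stood at 8.77, 3863 and 2619 FPKM, against 3663, 3.53 and 268.9 FPKM in the same libraries. Where one gene was low the other was high. Their sum was 5628, 6827 and 6167 FPKM in slstop1 with Al and 3961, 3121 and 4083 FPKM in WT with Al, and its coefficient of variation in slstop1 with Al was 9.67% against 34.5% and 90.9% for the genes taken singly. In WT with Al it was 14.1% against 77.3% and 155.6%, and in WT without Al 41.4% against 104.1% and 75.2%. In slstop1 without Al the sum was no steadier, with 41.2% against 38.9% and 46.5%. Whether the reads of the pair were assigned to one gene or the other by chance was not tested.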

How the data were processed

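Messenger RNA of tomato roots was sequenced in 12 libraries, 3 per group, and the sample titles gave group and replicate. The authors deposited 1 table of values per gene model, taken here as FPKM from its decimals and column sums, since the table does not name its unit. TopHat2, HISAT2, StringTie and Cufflinks are named, without versions or roles, per the submitters' processing notes. The genome build is not given in the sources used here, nor is the annotation. An FPKM value is relative to the library, so a rise of abundant transcripts lowers the others. Absolute depth is unknown and no counting interval is given. Relative depth, read from the spacing of low values, spanned a factor of 1.45 from the shallowest to the deepest library.

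Shares are percentages of the summed FPKM. Changes were tested with limma 3.58.1 in R 4.3.3 (group means over the 12 libraries, eBayes with a trend, two-sided) on log2(FPKM + 1), with genes of at least 1 FPKM in at least 3 libraries, and called at a Benjamini-Hochberg adjusted p under 0.05. P-values measure the spread between the deposited samples. Tables and figures were made with pandas 2.3.3, numpy 2.4.6 and matplotlib 3.10.9 in Python 3.11.15. On simulated data (15091 genes, 200 changed in WT with Al) the procedure recovered 52% of log2 changes of 1 and 94% of changes of 2, and wrongly called 6. Between genotypes without Al, where nothing was changed, 0 genes were called. The simulation gave all groups 1 baseline, drew the changed genes from the most abundant and did not hold the libraries to a fixed sum. In the data 60.9% of the genes tested were called for Al in WT, so the simulated rates do not carry over to that comparison. Same-numbered replicates did not deviate together (r from −0.24 to 0.093), so they were not treated as pairs.

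The members and lists were chosen with earlier results of these data known. Named genes are, in each comparison, at most 2 members with the largest gain and 2 with the largest loss in share, and at most 2 with the largest rise and 2 with the largest fall by limma among the calls, plus the genes just inside and outside the limit of the list and SlSTOP1. None of the identifiers matched the reference gene table (assembly SLM_r2.1; 0 matches), so lists by function and markers of root and green tissue, which needed descriptions, were not analysed here, and no sequence is shown. Alternatives were pseudocounts of 0.1 and 5, no filter, a mean of at least 5 FPKM, 2 other scalings, members chosen by their median, the sum of the tested genes as denominator, a fit of the 6 libraries compared alone, a replicate block, and leaving out each library.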

Additional observations from a re-analysis of the deposited data

How the results depend on the processing

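The differences in share of the 100 genes for Al in either genotype and for slstop1 against WT with Al kept their direction in every alternative run, and the counts called for Al in either genotype stayed within 1.5 times. The difference in share between genotypes without Al did not: it was 0.74 points and −0.27 points without replicate 3 of the WT controls. Leaving out each library in turn gave shares of 32.0 to 33.05% (slstop1 with Al), 24.83 to 26.13% (WT with Al), 10.03 to 10.92% (slstop1 without Al) and 9.339 to 10.88% (WT without Al), and 82 to 84 genes rising and 5 to 7 falling with Al in WT. The counts between genotypes were less stable. Genes higher in slstop1 without Al numbered 2, and 1 with no filter, 1 with median-of-ratios scaling, 1 with the replicate block and 0 with only the libraries compared; leaving out each library gave 0, without replicate 1 or 2 of slstop1 without Al, to 3. Genes higher in slstop1 with Al numbered 6, but 24 with median-of-ratios scaling and 10 scaled to the sum of the other genes. With only the libraries compared there were 23. Over all genes tested, the share called higher was 1.12% in the main fit. It was 3.02%, 1.45% and 2.24% in those settings, in that order. Leaving out each library gave 2 members, without replicate 2 or 3 of slstop1 with Al, to 19, without replicate 3 of WT without Al. Of all genes tested, 0.361%, 0.474% and 2.32% were called higher without those libraries. Genes lower with Al numbered 0, 1 with only the libraries compared, and 0 to 3 when a library was left out (2 when replicate 2 of WT with Al was dropped and 3 when replicate 3 of the WT controls was). For the interaction, 0 to 1 were higher and 0 to 1 lower, the calls appearing when one of these libraries was left out. The causes were not tested. Of 1782 alternative values of the named genes, 1721 stayed on their side of the threshold, 36 lost a call and 25 gained one. Of those called in the main fit or in the alternative, 0 reversed. Values called in neither were not counted as reversed, and the sign of some of them did change. For Solyc03g096430.1 the difference between genotypes without Al, for example, ran from −0.25 to 0.45 (log2). The unknown depth limits what can be said of genes near 1 FPKM.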
